A study of Mus musculus with 7 samples.

Results

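Insulin-like growth factor (IGF) genes were described in fibroblasts sorted from growing mouse hearts. The set was chosen by name, with earlier results of these data known. It comprised Igf1, the binding protein genes Igfbp2 to Igfbp7 and the RNA-binding protein genes Igf2bp1, Igf2bp2 and Igf2bp3. These were 10 of the 54735 gene symbols counted. Bulk RNA sequencing had been run on 7 libraries in 3 groups. Postn P7 (2 libraries, genotype PostnMCM;R26eGFP, 7 days of age) held cells marked through the gene of periostin, a secreted matrix protein of developing and activated fibroblasts. Tcf21 P30 (3 libraries, genotype Tcf21MCM;R26eGFP, 30 days) and Tcf21 P7 (2 libraries, the same genotype, 7 days) held cells marked through Tcf21, a transcription factor gene of resident cardiac fibroblasts. In all groups a tamoxifen-inducible MerCreMer recombinase switched on an eGFP reporter at the Rosa26 locus, and GFP-positive cells were sorted. A marked cell had therefore expressed the driver gene while the recombinase was active, which need not match its expression at collection. Males and females were pooled in every group.

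IGF-I is a secreted growth factor that acts through the IGF-I receptor, a tyrosine kinase that signals through insulin receptor substrates, PI3 kinase and Akt. In tissue and blood the IGFs are held by binding proteins (IGFBPs), which block or prolong their action and are cut by proteases such as pappalysin. The 3 IGF2BPs are a separate family, cytoplasmic proteins that bind messenger RNAs, among them that of IGF-II, and that are best known from embryonic tissue and tumours. In the heart, fibroblasts are a local source of IGF-I and IGFBPs for cardiomyocytes.

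Libraries held 15207835 to 18519528 counts. Gene levels below are CPM, that is, counts after TMM scaling of the library sizes, or, where genes are set against each other, CPM per kilobase of exon (RPKM). A difference is called where the adjusted p of edgeR's quasi-likelihood test, over the 17636 genes that passed a low-count filter, was under 0.05. All 10 members passed. Igfbp2 and Igf2bp1 had under 10 counts in each Tcf21 P30 library, so that they passed through the P7 libraries. The 12 fibroblast markers, with no gene at 0 in any library, summed to 36712 and 44944 CPM in the Postn P7 pair, 26170 to 32259 CPM in Tcf21 P30 and 50465 and 50629 CPM in Tcf21 P7. This list held collagen genes and the driver genes Postn and Tcf21. Of the 12, 2 were called higher and 4 lower at P30 than in Tcf21 P7, against 16.7% and 15.0% of all genes tested. The median log2 fold change of the list was -0.02 there. One Tcf21 P30 library, replicate 1, stood apart with 4579 CPM over 14 endothelial markers, against 1153 and 1392 CPM in its group, 1981 and 1199.9 CPM in Postn P7, with replicate 1 the higher, and 1237 and 1396 CPM in Tcf21 P7. Tcf21 P30 replicate 1 also had the highest sums of its group over 10 pericyte markers (1578 CPM, against 856 and 907 CPM) and 10 cardiomyocyte markers (1265.5 CPM, against 675 and 709 CPM). The same held for 7 smooth muscle markers (1156 CPM, against 588 and 586 CPM) and 7 erythroid markers (621 CPM, against 181 and 291 CPM). The pericyte sums were 2335.5 and 1704 CPM in Postn P7 and 1170 and 1119 CPM in Tcf21 P7. Any pair of the comparisons below has 1 group in common and so shares libraries.

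The promoters of 5 of the 7 members that changed with age are shown first, as RefSeq gives them in GRCm38.p6, so that genes that rose can be read beside genes that fell. Those of Igf2bp1, which had the largest fitted fall, and of Igfbp2 are not shown. Each window runs from 250 bases before to 50 bases after the annotated start, on the gene's strand. That of Igf1 lies inside the gene, which begins at chr10:87858265 in GENCODE M21, so it covers an internal start. The outermost start of Igf1 is not shown. The window of Igfbp6 ends at chr15:102144235, before the GENCODE M21 start of that gene at chr15:102144362. By that annotation it holds no base of the gene. Igfbp6 (chr15:102143936-102144235, plus strand), Igfbp3 (chr11:7213874-7214173, minus strand) and Igf1 (chr10:87860861-87861160, plus strand) were higher at P30. Igf2bp2 (chr16:22163250-22163549, minus strand) and Igf2bp3 (chr6:49214905-49215204, minus strand) were lower. Capitals mark every match, on either strand, to 1 of 4 motifs. The TATA box was searched as TATAAA and the CCAAT box by the letters of its name. The GC box was searched as GGGCGG. The cell cycle homology region, known from promoters of mitotic genes, was searched as TTTGAA.
Igfbp6 promoter: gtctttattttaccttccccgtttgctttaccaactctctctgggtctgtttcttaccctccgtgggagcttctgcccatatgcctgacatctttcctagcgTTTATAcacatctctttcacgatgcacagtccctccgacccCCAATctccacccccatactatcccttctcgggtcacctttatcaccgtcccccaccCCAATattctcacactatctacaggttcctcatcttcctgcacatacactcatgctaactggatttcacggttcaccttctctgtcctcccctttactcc
Igfbp3 promoter: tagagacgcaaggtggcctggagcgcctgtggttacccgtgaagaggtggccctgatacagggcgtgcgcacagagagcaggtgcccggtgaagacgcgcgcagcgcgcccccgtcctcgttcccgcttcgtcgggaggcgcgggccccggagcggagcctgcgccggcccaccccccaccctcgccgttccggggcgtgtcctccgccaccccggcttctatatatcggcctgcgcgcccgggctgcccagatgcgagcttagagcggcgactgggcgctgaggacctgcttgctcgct
Igf1 promoter: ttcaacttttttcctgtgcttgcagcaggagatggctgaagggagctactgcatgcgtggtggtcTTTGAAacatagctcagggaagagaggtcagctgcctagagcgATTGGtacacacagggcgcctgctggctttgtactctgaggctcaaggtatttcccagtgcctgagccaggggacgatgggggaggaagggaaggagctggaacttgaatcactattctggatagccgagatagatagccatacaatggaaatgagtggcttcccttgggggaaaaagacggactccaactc
Igf2bp2 promoter: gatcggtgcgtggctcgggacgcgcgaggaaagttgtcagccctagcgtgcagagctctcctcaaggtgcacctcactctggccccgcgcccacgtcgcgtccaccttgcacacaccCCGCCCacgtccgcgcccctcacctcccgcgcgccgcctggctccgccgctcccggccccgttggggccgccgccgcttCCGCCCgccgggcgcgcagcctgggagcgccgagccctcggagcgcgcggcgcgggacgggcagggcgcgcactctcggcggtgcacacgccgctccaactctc
Igf2bp3 promoter: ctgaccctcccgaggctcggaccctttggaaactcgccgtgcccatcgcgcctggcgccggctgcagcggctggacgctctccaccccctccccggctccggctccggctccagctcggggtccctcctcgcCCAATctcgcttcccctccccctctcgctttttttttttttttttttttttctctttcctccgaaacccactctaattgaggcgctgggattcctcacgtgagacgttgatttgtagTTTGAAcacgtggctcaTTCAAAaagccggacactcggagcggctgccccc

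The windows differed in base composition. GC made up 49.7% of the Igfbp6 window and 52.3% of the Igf1 window, close to the median of 52.7% over 32851 RefSeq promoter windows. It made up 71.7% of the Igfbp3 window, 76.7% of the Igf2bp2 window and 60.3% of the Igf2bp3 window. Igfbp6 held 2 CCAAT boxes and 1 TATA box match, Igf1 held 1 CCAAT box and 1 cell cycle homology region, Igf2bp2 held 2 GC boxes, and Igf2bp3 held 1 CCAAT box and 2 cell cycle homology regions. The TATA box match of Igfbp6 was on the opposite strand, at position -148 from the RefSeq start, which lies before the GENCODE M21 start. No exact match to any motif searched lay in the Igfbp3 window. That window does hold the letters TATATAT, a variant of TATAAA that was not searched. Of all windows 13.6% held a TATA box, 37.4% a CCAAT box, 35.7% a GC box and 17.9% a cell cycle homology region. A STAT5-type palindrome (TTCNNNGAA), known from growth hormone targets, was searched too; none of the 5 windows held it, against 8.3% of all windows.

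Between day 7 and day 30 the Tcf21-traced fibroblasts changed in 7 of the 10 genes, 3 higher and 4 lower. The share of all genes tested that was called in this comparison was 31.8% (16.7% higher, 15.0% lower). Igf1, Igfbp3 and Igfbp6 rose, Igf2bp1, Igf2bp2, Igf2bp3 and Igfbp2 fell, and Igfbp4, Igfbp5 and Igfbp7 were not called. Without Igfbp2 and Igf2bp1, the members with few counts at P30, 5 of 8 were called, 3 higher and 2 lower. Libraries of the groups did not overlap for 9 of the 10 genes, against 61.8% of all genes. The median log2 fold change of the 10 genes was -0.10, against 0.03 over all genes tested. The plot of levels by library shows the 10 genes side by side.

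**Figure D1:**
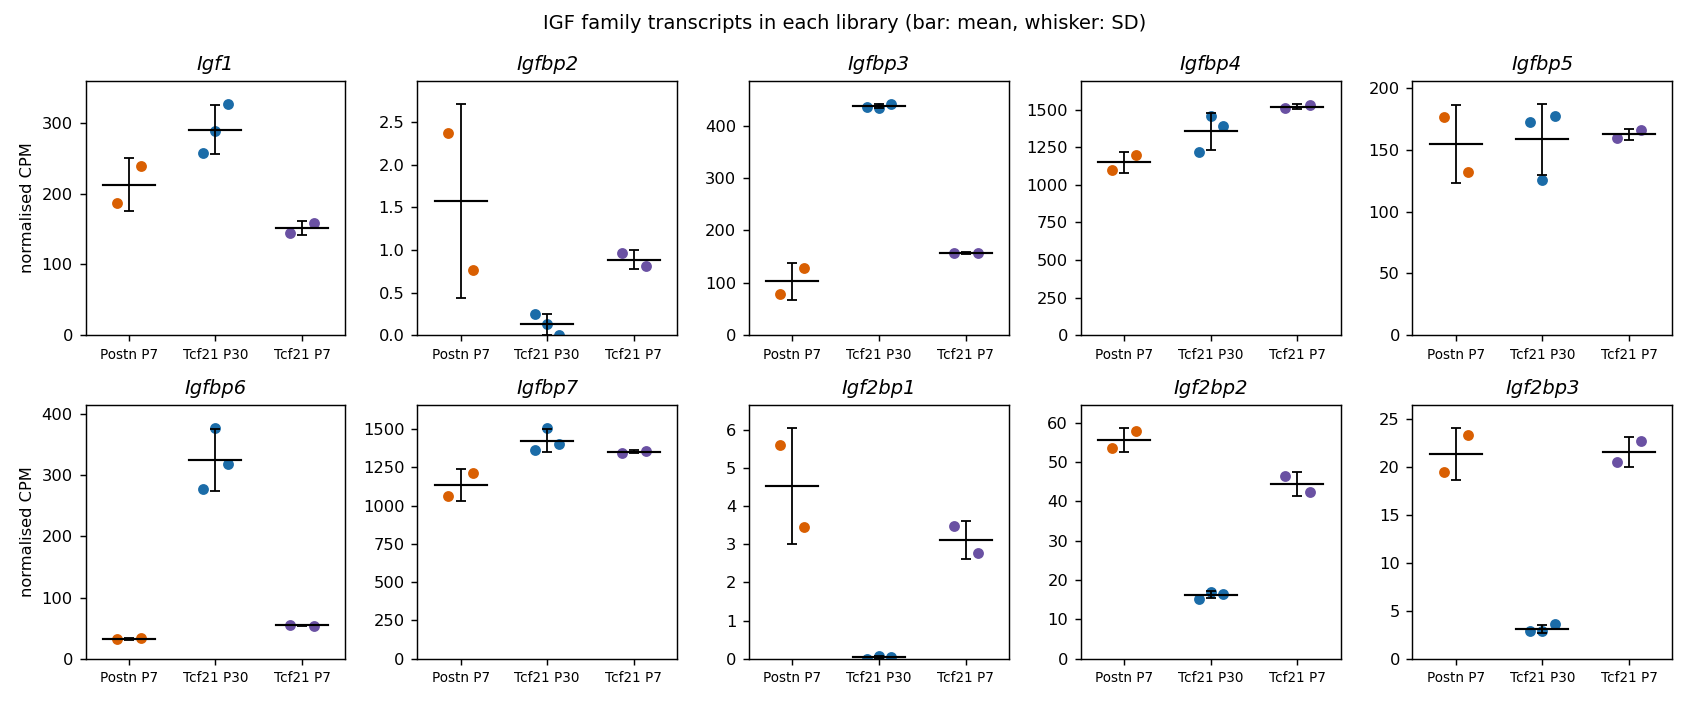
Normalised CPM of the 10 genes in each library. Points are libraries, bars group means and whiskers SDs, with n = 2 for Postn P7, n = 3 for Tcf21 P30 and n = 2 for Tcf21 P7, and each panel has its own linear axis from 0. Igf1, Igfbp3 and Igfbp6 are highest at P30, the 3 IGF2BP genes and Igfbp2 are lowest there, and Igfbp5 overlaps between all groups.

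Among the ligands, Igf1 (chr10:87858265-87937042 in GRCm38, plus strand, protein coding) encodes IGF-I. It stood at 186 and 239 CPM in the Postn P7 libraries, at 257, 288 and 326 CPM in Tcf21 P30 and at 144 and 158 CPM in Tcf21 P7. The 3 groups did not overlap, with Tcf21 P30 highest and Tcf21 P7 lowest. The means were 213 ± 37.1 CPM (SD, n = 2), 291 ± 34.9 CPM (SD, n = 3) and 151 ± 10.1 CPM (SD, n = 2), in that order of groups. The rise at P30 over Tcf21 P7 was 0.945 ± 0.14 on the log2 scale (± SE, adjusted p = 0.0022). Postn P7 stood above Tcf21 P7 by 0.49 ± 0.15, which was not called (adjusted p = 0.072), while DESeq2 called it (adjusted p = 0.037) and the fit without Tcf21 P30 replicate 1 did too (adjusted p = 0.029). Against Tcf21 P30, Postn P7 stood at -0.45 ± 0.14, also not called (adjusted p = 0.052), and DESeq2 and limma-voom called it (adjusted p = 0.025 and 0.043). Without Tcf21 P30 replicate 1 that difference was called (adjusted p = 0.015). It was also called without Postn P7 replicate 2 (adjusted p = 0.031), a fit that leaves 1 Postn P7 library. In every fit without a P7 library, the group left with a lone library adds nothing to the estimate of spread, which is taken from the other groups and applied to it. The antisense transcript Igf1os lies over Igf1 but shares 0 bases of exon with it, and had 19 counts in all libraries against 27082 of Igf1.

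Macrophages also make IGF-I. Their 15 markers, with none at 0 in any library, summed to 395 and 537 CPM in the Postn P7 pair, 466 to 703 CPM in Tcf21 P30 and 1362 and 1368 CPM in Tcf21 P7. Of the 15, 13 were called lower in Postn P7 than in Tcf21 P7, against 5.49% of all genes tested. In Tcf21 P30, 12 were called lower than in Tcf21 P7, against 15.0% of all genes tested. Igf1 was lowest in the group with the most macrophage transcripts, and the part of these cells in the Igf1 result was not tested. In bulk libraries such as these, fewer cells of a type and less RNA per cell cannot be told apart. The other ligand gene, Igf2, which encodes IGF-II, stood at 17.7 and 14.3 CPM in the Postn P7 libraries, at 2.90, 0.634 and 1.32 CPM in Tcf21 P30 and at 37.9 and 28.04 CPM in Tcf21 P7. Its fall with age was -4.35 ± 0.49 (adjusted p = 0.0013), opposite to that of Igf1.

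Of the binding proteins, Igfbp6 (chr15:102144362-102149511, plus strand) changed most among those with ample counts. It encodes a binding protein with a marked preference for IGF-II. It stood at 31.7 and 33.9 CPM in the Postn P7 libraries, at 278, 378 and 319 CPM in Tcf21 P30 and at 55.0 and 54.1 CPM in Tcf21 P7. No libraries of different groups overlapped, and every P30 library was above every P7 library. The increase with age was 5.95-fold, or 2.57 ± 0.14 on the log2 scale (adjusted p = 3.6e-05). Postn P7 was lower than Tcf21 P30 (log2 fold change -3.31 ± 0.15, adjusted p = 1.5e-05).

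Igfbp6 was also the member that was called between the lineages at day 7, where 12.0% of all genes tested were called (6.52% higher, 5.49% lower). It was lower in Postn P7 than in Tcf21 P7 (log2 fold change -0.73 ± 0.14, adjusted p = 0.020). That call was lost without Tcf21 P30 replicate 3 and without any 1 of the 4 P7 libraries, where 1 of the groups compared is a lone library and the spread comes from the other groups. The adjusted p was 0.074 without Postn P7 replicate 1 or replicate 2, 0.159 and 0.155 without Tcf21 P7 replicate 1 and replicate 2, and 0.058 without Tcf21 P30 replicate 3. The log2 fold change stayed between -0.79 and -0.69.

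Igfbp3 (chr11:7206086-7213923, minus strand) encodes the main IGF carrier of blood plasma. It stood at 78.2 and 128 CPM in the Postn P7 libraries, at 437, 434 and 441 CPM in Tcf21 P30 and at 156 and 158 CPM in Tcf21 P7. The P30 libraries lay within a narrow band well above all P7 libraries, the endothelial-rich library among them, and the Postn P7 libraries were lowest and spread most. Igfbp3 rose with age by 1.48 ± 0.19 (2.78-fold, adjusted p = 0.0011). Postn P7 was lower than Tcf21 P30 (log2 fold change -2.085 ± 0.19, adjusted p = 0.00025). Its difference from Tcf21 P7, -0.61 ± 0.20, was not called (adjusted p = 0.085), but DESeq2 called it (adjusted p = 0.022). It was -1.02 without Postn P7 replicate 2 (adjusted p = 0.011) and -0.30 without replicate 1, fits that each rest on 1 Postn P7 library with the spread of the other groups. Igfbp1, the neighbour of Igfbp3 at a distance of 3.5 kb, had 0 counts in all 7 libraries.

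Igfbp4, Igfbp5 and Igfbp7 were not called in any comparison. Igfbp7 (chr5:77349240-77408041, minus strand) encodes a matrix-associated protein that binds IGFs weakly. It stood at 1062.7 and 1209 CPM in the Postn P7 libraries, at 1362, 1507 and 1403 CPM in Tcf21 P30 and at 1345 and 1357 CPM in Tcf21 P7. Postn P7 was lowest, and its difference from Tcf21 P30 of -0.33 ± 0.11 was just outside the threshold (adjusted p = 0.056). DESeq2 and limma-voom called it (adjusted p = 0.033 and 0.035), and so did the fit without Tcf21 P30 replicate 1 (adjusted p = 0.030). Polr2b, on the opposite strand, shares 85 bases of exon with Igfbp7, and whether counting used strand is not given in the sources used here.

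Igfbp4 (chr11:99041244-99054392, plus strand), an IGF-inhibiting binding protein that is the classic substrate of pappalysin, stood at 1099.5 and 1198 CPM in the Postn P7 libraries, at 1219, 1456 and 1390 CPM in Tcf21 P30 and at 1509 and 1532 CPM in Tcf21 P7. It was highest in Tcf21 P7, with no overlap between groups. The differences from Tcf21 P7 were -0.40 ± 0.12 for Postn P7 (adjusted p = 0.067) and -0.17 ± 0.11 for Tcf21 P30 (adjusted p = 0.28). DESeq2 and limma-voom called that of Postn P7 (adjusted p = 0.030 and 0.0496), as did the fit without Tcf21 P30 replicate 1 (adjusted p = 0.024). Against Tcf21 P30, Postn P7 stood at -0.24 ± 0.11 (adjusted p = 0.16), and without Tcf21 P30 replicate 1 this was called (adjusted p = 0.040).

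Igfbp5 (chr1:72857932-72874884, minus strand), which encodes a binding protein that attaches to extracellular matrix, stood at 177 and 132 CPM in the Postn P7 libraries, at 173, 126 and 177 CPM in Tcf21 P30 and at 160 and 166 CPM in Tcf21 P7. The groups overlapped throughout. Its log2 fold changes of -0.07 ± 0.19, -0.04 ± 0.18 and -0.04 ± 0.18 in Postn P7 against Tcf21 P7, Tcf21 P30 against Tcf21 P7 and Postn P7 against Tcf21 P30 had adjusted p of 0.83, 0.89 and 0.91, and their sign changed with library size alone as the scaling in the comparisons with Postn P7. Igfbp2 lies 5.5 kb from Igfbp5, tail to tail. The neighbours differed widely in level, at 0.852 and 25.8 RPKM in Postn P7, 0.0685 and 26.4 RPKM in Tcf21 P30, and 0.480 and 27.1 RPKM in Tcf21 P7 for Igfbp2 and Igfbp5.

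Igfbp2 (chr1:72824503-72852474, plus strand), a binding protein gene of fetal tissues, was close to the limit of detection. It had 45 and 12 counts in Postn P7, 4, 2 and 0 counts in Tcf21 P30 and 17 and 14 counts in Tcf21 P7. The P7 groups overlapped, and the P30 libraries were below all others. The fall with age was -2.79 ± 0.90 (adjusted p = 0.047), and Postn P7 was higher than Tcf21 P30 by 3.63 ± 0.86 (adjusted p = 0.018). The age call was lost with limma-voom (adjusted p = 0.051), with library size alone (adjusted p = 0.053) and without Postn P7 replicate 1, Tcf21 P7 replicate 1 or 2, or Tcf21 P30 replicate 2 or 3 (adjusted p = 0.0504, 0.172, 0.135, 0.095 and 0.094). The call between Postn P7 and Tcf21 P30 was lost without Postn P7 replicate 1 (2.58, adjusted p = 0.16) or Tcf21 P30 replicate 2 (adjusted p = 0.0503). Sums of epicardial and mesothelial markers ordered the libraries as Igfbp2 did, apart from Postn P7 replicate 2 and Tcf21 P30 replicate 1, which changed places. Postn P7 replicate 2 had the lower marker sum of these but more Igfbp2, at 0.769 against 0.252 CPM (12 against 4 counts). None of the markers was called in any comparison. Their median log2 fold change was 0.636 in Postn P7 against Tcf21 P7 and -2.785 in Tcf21 P30 against Tcf21 P7. It was 3.536 in Postn P7 against Tcf21 P30, so all 3 medians had the sign of Igfbp2. The 8 markers summed to 68.9 and 6.47 CPM in the Postn P7 pair, 18.2, 2.09 and 2.03 CPM in Tcf21 P30 and 26.1 and 22.1 CPM in Tcf21 P7. In Postn P7 replicate 2 the defining genes Upk3b, Msln, Upk1b, Lrrn4 and Bnc1 were at 0, as were Bnc1 in Tcf21 P30 replicate 1, Msln, Upk1b, Lrrn4 and Bnc1 in replicate 2, and Upk3b, Msln, Krt8, Upk1b and Lrrn4 in replicate 3. None of the 8 was at 0 in the other libraries. The part of these cells in the Igfbp2 result was not tested.

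Per exon length, Igfbp7 was the most abundant transcript of the family in every group, at 940 ± 85.6 RPKM in Postn P7 (SD, n = 2), 1178 ± 61.8 RPKM in Tcf21 P30 (SD, n = 3) and 1118 ± 7.26 RPKM in Tcf21 P7 (SD, n = 2). Igfbp4 followed at 260 ± 15.8, 307 ± 27.7 and 344 ± 3.72 RPKM. In Tcf21 P30, Igfbp6 came next at 292 ± 45.2 RPKM, a level that did not differ from that of Igfbp4 beyond their spread, and then Igfbp3 at 140 ± 1.23 RPKM. At P7 these were far lower, with Igfbp3 at 33.0 ± 11.3 RPKM and Igfbp6 at 29.5 ± 1.37 RPKM in Postn P7, and at 50.2 ± 0.358 and 49.1 ± 0.565 RPKM in Tcf21 P7. In Postn P7, Igfbp3, Igfbp6, Igfbp5 (25.8 ± 5.24 RPKM) and Igf1 (21.5 ± 3.75 RPKM) did not separate beyond their spread, apart from Igfbp6 and Igf1. In Tcf21 P30, Igf1 (29.3 ± 3.53 RPKM) and Igfbp5 (26.4 ± 4.76 RPKM) overlapped.

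The make-up of the IGFBP transcripts differed between the groups, as the stacked bars show. Igfbp7 made up 72.9 ± 0.522% of the summed IGFBP RPKM in Postn P7 (SD, n = 2), 60.7 ± 1.05% in Tcf21 P30 (SD, n = 3) and 70.3 ± 0.0497% in Tcf21 P7 (SD, n = 2). Igfbp6 made up 2.29 ± 0.0862%, 14.97 ± 1.33% and 3.09 ± 0.0578%. Igfbp3 made up 2.53 ± 0.663%, 7.21 ± 0.499% and 3.16 ± 0.000189%, and Igfbp4 20.2 ± 0.469%, 15.8 ± 0.570% and 21.7 ± 0.0781%. The sum itself was 1212 and 1365 RPKM in Postn P7, 1820, 2075 and 1932 RPKM in Tcf21 P30 and 1581 and 1597 RPKM in Tcf21 P7. For each unit of Igf1 RPKM there were 64.4 and 56.6 units of IGFBP transcript in Postn P7, 70.2, 71.3 and 58.6 in Tcf21 P30 and 108.9 and 100.1 in Tcf21 P7. The ratio was highest in both Tcf21 P7 libraries, while Postn P7 and Tcf21 P30 overlapped. These shares and ratios were not tested, and they follow from the levels above. With the longest transcript as the length, shares moved by more than several of these SDs. Igfbp7 was then at 70.3%, 58.2% and 67.6% in Postn P7, Tcf21 P30 and Tcf21 P7. In that order Igfbp6 was at 2.20%, 14.3% and 2.95%, Igfbp3 at 3.13%, 8.88% and 3.90%, and Igfbp4 at 22.3%, 17.3% and 23.8%.

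**Figure D2:**
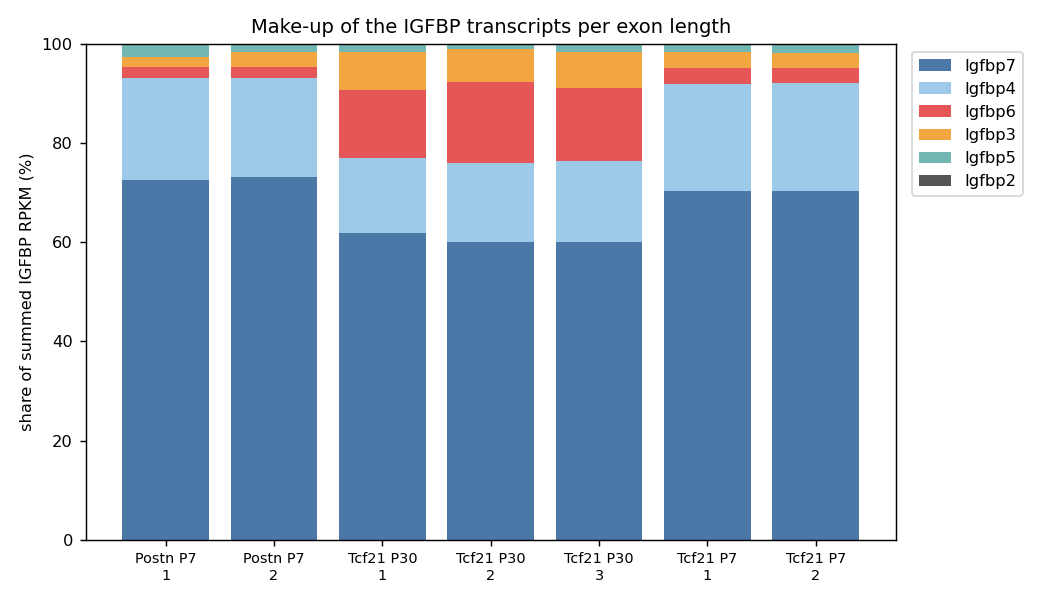
Share of each binding protein gene in the summed IGFBP RPKM of a library, in percent, with 1 bar per library. Igfbp6 and Igfbp3 together take a larger part of the 3 Tcf21 P30 bars than of any P7 bar, and Igfbp7 a smaller part, 60.7% on average against 72.9% in Postn P7 and 70.3% in Tcf21 P7.

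The 3 IGF2BP genes were lower at P30 and were not called between the lineages at day 7. Igf2bp1 (chr11:95957163-96005940, minus strand) had 106 and 54 counts in Postn P7, 0, 1 and 1 counts in Tcf21 P30 and 61 and 48 counts in Tcf21 P7. It was thus all but undetected at P30. Over the summed counts its level in Tcf21 P30 was 0.0129 of that in Tcf21 P7, with an exact binomial 95% interval of 0.00154 to 0.0476 that covers counting error only, as the labels name no molecular identifiers. The fitted fall was called (adjusted p = 0.00027), and so was the excess of Postn P7 over Tcf21 P30 (adjusted p = 0.00015). Postn P7 and Tcf21 P7 overlapped, at 5.61 and 3.46 CPM against 3.47 and 2.77 CPM (0.54 ± 0.41, adjusted p = 0.41).

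Igf2bp3 (chr6:49085223-49214957, minus strand) stood at 19.4 and 23.3 CPM in the Postn P7 libraries, at 2.90, 2.85 and 3.63 CPM in Tcf21 P30 and at 20.5 and 22.7 CPM in Tcf21 P7. The P7 groups overlapped (-0.02 ± 0.18, adjusted p = 0.96), a difference that turned positive under library-size-only or upper-quartile scaling and with just these 2 groups in the fit, and all P30 libraries were far below them. The fall with age was -2.78 ± 0.17 (adjusted p = 4.8e-05), and Postn P7 was higher than Tcf21 P30 by 2.76 ± 0.17 (adjusted p = 3.8e-05). Igf2bp3 shares 1529 bases of exon with Malsu1, a gene on the opposite strand, and without knowledge of strand their reads cannot be told apart there. Malsu1 itself differed by -0.18 ± 0.12 between Tcf21 P30 and Tcf21 P7, which was not called (adjusted p = 0.28).

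Igf2bp2 (chr16:22059009-22163299, minus strand), the member of the family best known from adult tissues, retained the highest level at P30. It stood at 53.5 and 57.8 CPM in the Postn P7 libraries, at 15.3, 17.1 and 16.4 CPM in Tcf21 P30 and at 46.5 and 42.3 CPM in Tcf21 P7. The fall with age was -1.45 ± 0.10 (adjusted p = 7.5e-05), and Postn P7 was higher than Tcf21 P30 by 1.77 ± 0.10 (adjusted p = 3.3e-05). Postn P7 stood above both Tcf21 P7 libraries by 0.32 ± 0.11, which was not called (adjusted p = 0.097). With library size alone, a scaling that shifted the median gene by 0.11 (log2) here, it was called (adjusted p = 0.035). Per exon length, Igf2bp2 was at 7.51 ± 0.412, 2.20 ± 0.122 and 6.0 ± 0.406 RPKM in Postn P7, Tcf21 P30 and Tcf21 P7, against 2.61 ± 0.333, 0.383 ± 0.0530 and 2.64 ± 0.192 RPKM for Igf2bp3.

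The mitotic transcripts were lower at P30, as the IGF2BP genes were. The 10 mitosis markers summed to 427 and 360 CPM in the Postn P7 pair, 67.8 to 98.6 CPM in Tcf21 P30 and 258 and 263 CPM in Tcf21 P7. Of the 10, 9 were called lower at P30 than in Tcf21 P7, against 15.0% of all genes tested. Between the lineages at day 7, 3 of the 10 were higher in Postn P7, against 6.52% of all genes tested, while no IGF2BP gene was called. The part of the mitotic transcripts in the result was not tested. Across the 7 libraries the log2 levels of Igf2bp1, Igf2bp2 and Igf2bp3 correlated with each other with Pearson's r of 0.984, 0.965 and 0.981, and that of Igfbp6 correlated with them at -0.98, -0.99 and -0.97. These coefficients describe 7 points that fall into 3 groups and share their libraries.

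**Figure D3:**
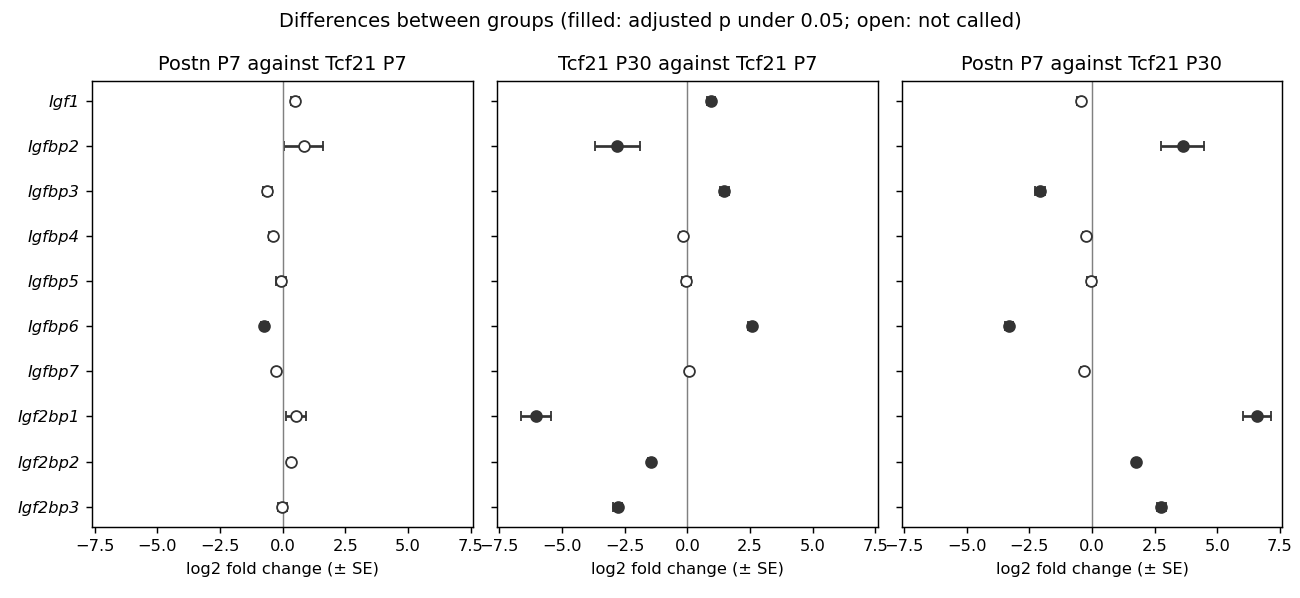
Log2 fold change with SE of the 10 genes in the 3 comparisons, with the group named first on top. Filled points passed an adjusted p of 0.05. In Postn P7 against Tcf21 P7 the filled point is Igfbp6, whereas in Tcf21 P30 against Tcf21 P7 there are 7, with the 3 IGF2BP genes and Igfbp2 on the left and Igf1, Igfbp3 and Igfbp6 on the right.

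Between Postn P7 and Tcf21 P30, which differ in both lineage and age, 6 of the 10 genes were called, 4 higher and 2 lower, against 24.2% of all genes tested (11.7% higher, 12.5% lower). Igfbp2 and the 3 IGF2BP genes were higher, and Igfbp3 and Igfbp6 lower, in Postn P7. Without Igfbp2 and Igf2bp1, 4 of 8 were called. Groups did not overlap for 9 of the 10, against 50.6% of all genes. The median of the 10 log2 fold changes was -0.14, against -0.01 over all genes tested. Between Postn P7 and Tcf21 P7, 1 of 10 was called, and the median was -0.04 against 0.00 over all genes. There the groups did not overlap for 6 of the 10, against 64.0% of all genes. None of the 7 libraries was Postn-traced at day 30, so an effect of lineage at that age could not be analysed.

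The genes whose pattern over the 7 libraries was most like each called member were found by Pearson's r of log2(CPM + 1) among 9979 genes. For Igf1 they were Sox5, Stxbp3 and Stxbp5 (r of 0.99 each), for Igfbp3 Pop5, Gstt3 and Fth1 (0.998, 0.995 and 0.993) and for Igfbp6 Ifi27, Tmbim1 and Gpnmb (0.999 each). For Igf2bp1, with 0, 1 and 1 counts at P30, they were Ccnb2, Cdca2 and Foxm1 (0.997, 0.996 and 0.996). These 3 genes of the cell division programme were among 293 genes that reached an r of 0.95 with Igf2bp1. For Igf2bp2 they were Spag5, Tcp1 and Tstd2 (0.999, 0.998 and 0.998), and for Igf2bp3 Nkain4, Sept11 and Nrk (0.998 each). Igfbp2 had Col18a1, Nudt5 and Spindoc (0.98, 0.98 and 0.97). For the other members, an r of 0.95 was reached by 111 of the 9979 genes for Igf1, 346 for Igfbp3 and 474 for Igfbp6. It was reached by 344 for Igf2bp2, 390 for Igf2bp3 and 9 for Igfbp2.

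Of 32 receptor and signalling genes of the IGF pathway 31 were tested, and at P30 9 were lower and 3 higher than in Tcf21 P7. The share called was 38.7%, not far from the 31.8% of all genes tested (15.0% lower, 16.7% higher). The median log2 fold change was -0.07, against 0.03 over all genes. Igf1r, the IGF-I receptor gene, stood at 71.0 and 56.2 CPM in the Postn P7 libraries, at 40.7, 28.6 and 41.7 CPM in Tcf21 P30 and at 65.9 and 62.8 CPM in Tcf21 P7 (-0.80 ± 0.17, adjusted p = 0.011 for age). Every P30 library was below every P7 library, so that the receptor and its ligand gene Igf1 moved in opposite directions. Igf2r, which encodes the receptor that clears IGF-II, fell by 0.96 ± 0.11 on the log2 scale (adjusted p = 0.00052). The largest changes among the called genes were those of Grb10, an adaptor that restrains the insulin and IGF-I receptors (-1.585 ± 0.19, adjusted p = 0.00088), Irs1, a docking protein of these receptors (-1.14 ± 0.17, adjusted p = 0.0025), and Pik3r1, a regulatory subunit of PI3 kinase (0.965 ± 0.22, adjusted p = 0.014).

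Between the lineages at day 7, Rps6kb1, the S6 kinase gene (0.70 ± 0.10, adjusted p = 0.0088), and Gab1, a docking protein (0.45 ± 0.09, adjusted p = 0.021), were the called genes of the 31 (6.45%, against 12.0% of all genes tested), and both were higher in Postn P7. Between Postn P7 and Tcf21 P30, 9 were higher and 2 lower (35.5%, against 24.2% of all genes tested), led by Grb10 (1.17 ± 0.19, adjusted p = 0.0038), Gab1 (0.99 ± 0.08, adjusted p = 0.00011) and Irs1 (0.82 ± 0.17, adjusted p = 0.013).

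Proteases that cut IGFBPs, their inhibitors and IGFBP relatives made up most of a list of 21, of which 16 were tested. The list also held Lrp1, Tmem219, Itga5 and Vtn, which belong to none of these classes, and they enter the counts below. At P30, 4 were higher and 1 lower than in Tcf21 P7, with a median of 0.18 against 0.03 over all genes. The share called was 31.2%, near the 31.8% of all genes tested. Adam12, a metalloprotease gene of developing muscle and connective tissue that can cut IGFBP-3 and IGFBP-5, had the largest change among the called genes. It stood at 25.5 and 32.2 CPM in the Postn P7 libraries, at 3.03, 3.87 and 4.12 CPM in Tcf21 P30 and at 35.8 and 35.4 CPM in Tcf21 P7 (-3.27 ± 0.17 for age, adjusted p = 2.8e-05). Htra4, a secreted serine protease gene, rose with age by 2.21 ± 0.19 (adjusted p = 0.00018), and Lrp1, an endocytic receptor gene, by 0.995 ± 0.15 (adjusted p = 0.0019). Stc2, which encodes an inhibitor of pappalysin, stood at 9.36 and 10.95 CPM in the Postn P7 libraries, at 27.96, 32.4 and 34.3 CPM in Tcf21 P30 and at 19.4 and 17.5 CPM in Tcf21 P7. It was higher at P30 than in Tcf21 P7 (0.77 ± 0.14, adjusted p = 0.0052) and lower in Postn P7 than in Tcf21 P7 (-0.86 ± 0.16, adjusted p = 0.017). Postn P7 differed from Tcf21 P7 also in Esm1, a proteoglycan gene known from endothelium (1.56 ± 0.21, adjusted p = 0.0065), Kazald1 (-0.64 ± 0.15, adjusted p = 0.031) and the serine protease gene Htra1 (-0.54 ± 0.15, adjusted p = 0.049), 1 higher and 3 lower of 16 with Stc2 (25%, against 12.0% of all genes tested). Against Tcf21 P30, 2 were higher and 8 lower in Postn P7 (62.5%, against 24.2% of all genes tested), led by Adam12 (2.97 ± 0.17, adjusted p = 3.1e-05), Htra4 (-2.04 ± 0.19, adjusted p = 0.00022) and Htra3 (-1.66 ± 0.21, adjusted p = 0.00092).

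Of 11 genes of the growth hormone axis, through which IGF-I is induced in liver and other tissues, 5 were higher and 2 lower at P30 than in Tcf21 P7, with a median of 0.32 against 0.03. The share called was 63.6%, against 31.8% of all genes tested (16.7% higher, 15.0% lower). Ghr, the growth hormone receptor gene, stood at 164 and 185 CPM in the Postn P7 libraries, at 199, 241 and 241 CPM in Tcf21 P30 and at 133 and 136 CPM in Tcf21 P7 (0.76 ± 0.11 for age, adjusted p = 0.0019). Its groups did not overlap, and they stood in the same order as those of Igf1. The largest changes among the called genes were in Socs3 (2.04 ± 0.45, adjusted p = 0.021) and Socs1 (1.07 ± 0.22, adjusted p = 0.0090), feedback inhibitors of cytokine signalling, and Prlr, the prolactin receptor gene (-1.72 ± 0.34, adjusted p = 0.0070). Cish, another such inhibitor, stood at -1.28 ± 0.56 and was not called (adjusted p = 0.14). Genes of the response to cell dissociation were also higher at P30 than in Tcf21 P7, 8 of 10 being called, against 16.7% of all genes tested. They had sums of 4562 and 9282 CPM in Postn P7, 9386 to 11998 CPM in Tcf21 P30 and 4414 and 4523 CPM in Tcf21 P7. Their part in the Socs results was not tested. Between the lineages Jak2, the kinase of the growth hormone receptor, was the called gene (0.50 ± 0.09, adjusted p = 0.018; 9.09% of the list, against 12.0% of all genes tested). Between Postn P7 and Tcf21 P30, 1 gene was higher, Prlr (1.60 ± 0.34, adjusted p = 0.011), and 4 were lower (45.5%, against 24.2% of all genes tested), with Socs1 (-0.86 ± 0.22, adjusted p = 0.025) and Stat5a (-0.76 ± 0.13, adjusted p = 0.0043) foremost.

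Partners and targets of the IGF2BPs and other RNA regulators of fetal tissue made up a list of 25, of which 22 were tested. At P30, 4 were higher and 6 lower than in Tcf21 P7, with a median of -0.18 against 0.03. The share called was 45.5%, against 31.8% of all genes tested (16.7% higher, 15.0% lower). The largest changes among the called genes were in H19, an imprinted RNA bound by IGF2BPs (-7.01 ± 0.38, adjusted p = 9.3e-05), Igf2, given above, and Zbtb16, a transcription factor gene (4.88 ± 0.37, adjusted p = 0.00012). Zbtb16 stood at 0.687 and 1.79 CPM in the Postn P7 libraries, at 38.9, 43.9 and 44.7 CPM in Tcf21 P30 and at 1.08 and 1.79 CPM in Tcf21 P7. Between the lineages at day 7, H19 was lower in Postn P7 (-1.49 ± 0.33, adjusted p = 0.038), and Matr3 (0.61 ± 0.09, adjusted p = 0.0083) and Srsf3 (0.37 ± 0.09, adjusted p = 0.038), genes of nuclear RNA-binding proteins, were higher (13.6% called, against 12.0% of all genes tested). Between Postn P7 and Tcf21 P30, 10 were higher and 2 lower (54.5%, against 24.2% of all genes tested), led by H19 (5.52 ± 0.38, adjusted p = 0.00018), Zbtb16 (-5.12 ± 0.38, adjusted p = 9.5e-05) and Igf2 (3.31 ± 0.49, adjusted p = 0.0043).

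**Figure D4:**
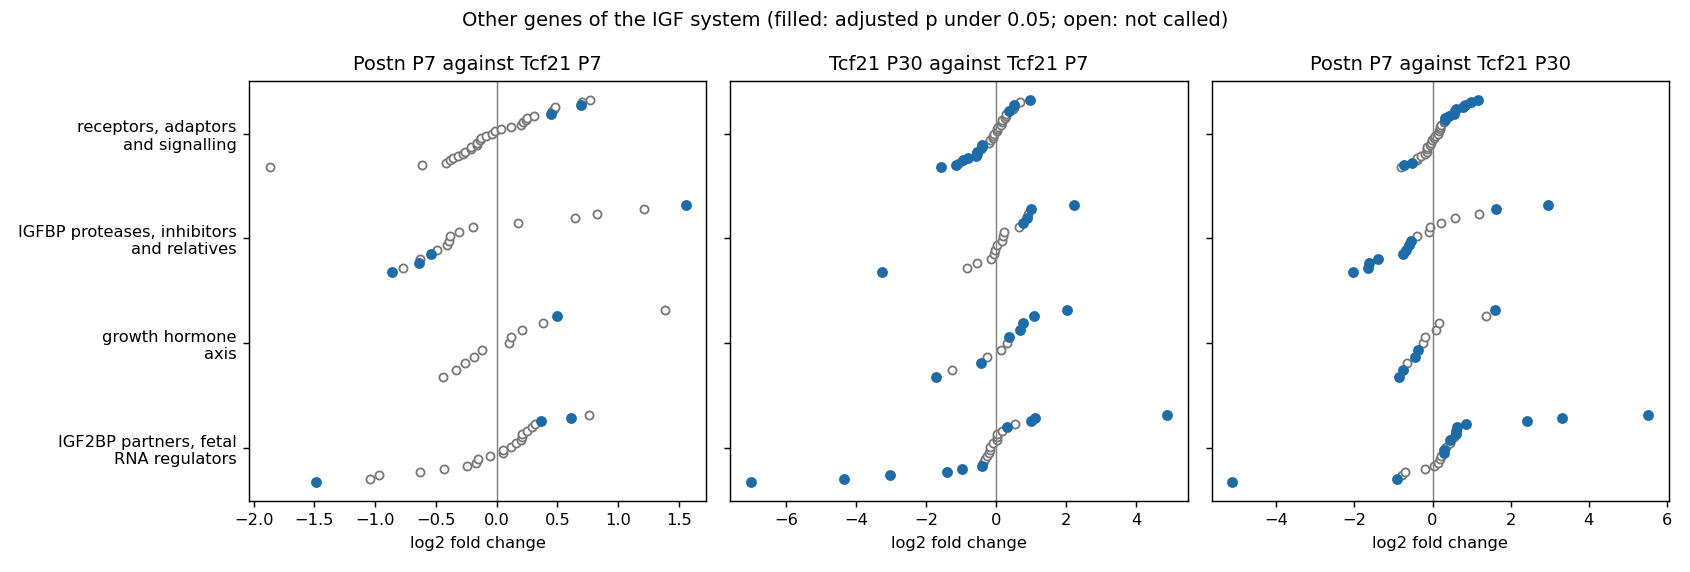
Log2 fold change of each tested gene of the 4 further lists in the 3 comparisons, with the group named first on top and each panel on its own axis. Filled points passed an adjusted p of 0.05, and genes are stacked by their value within a list. Over the 4 lists, 10 of 80 genes were called between the lineages, 34 between the ages and 38 between Postn P7 and Tcf21 P30.

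Over the 4 lists, 12.5%, 42.5% and 47.5% of 80 tested genes were called in Postn P7 against Tcf21 P7, Tcf21 P30 against Tcf21 P7 and Postn P7 against Tcf21 P30, set beside 12.0%, 31.8% and 24.2% of all genes. The lists were chosen with earlier results of these data known, so these shares do not test the lists. The count between the lineages depended on the libraries: it was 0 by edgeR without Tcf21 P7 replicate 1 or 2, where 19 and 18 of the list genes had an unadjusted p under 0.05 and 118 and 111 genes were called over all genes tested, and 5 without either Postn P7 library, and it was 18 without Tcf21 P30 replicate 1. The count between the ages was 21 and 17 without Tcf21 P7 replicate 1 and 2. That between Postn P7 and Tcf21 P30 was 25 without Postn P7 replicate 1.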

How the data were processed

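Per the labels, RNA of sorted GFP-positive cardiac cells was sequenced on an Illumina HiSeq. The authors deposited whole-number raw counts per gene symbol, 1 column per library, with no normalization. STAR and GRCm38 are named in the submitters' processing notes; the counting program, annotation and strand setting are not given in the sources used here.

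Tests on the raw counts used edgeR 4.0.16 under R 4.3.3 (filterByExpr, TMM scaling, 1 robust quasi-likelihood fit of the 7 libraries with a mean per group, Benjamini-Hochberg adjustment over 17636 genes). SEs were derived as |log2 fold change| over the root of F. The fit took 1 spread per gene for all groups, though libraries varied unequally within them. For pairs of libraries of a group, the chi-square of raw counts per degree of freedom was 18.4 in Postn P7 and 3.43 in Tcf21 P7. In Tcf21 P30 it ran from 9.90 to 38.1. Alternatives used DESeq2 1.42.0 and limma 3.58.1, and the procedure was tested on simulated data. Exon lengths are unions of exons in GENCODE M21. The members and lists were chosen with earlier results of these data known. Named genes are all members and, in each list and comparison, up to 3 called genes with the largest change; Igf1r, Igf2r, Stc2 at P30, Ghr, Cish and Htra1 were named after their values were seen. The labels do not say whether libraries came from separate animals, so p-values reflect only how far these libraries vary, which may be technical variation.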

Additional observations from a re-analysis of the deposited data

How the results depend on the processing

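Of 14 member results that were called, 11 kept their direction and their call under all 16 alternatives; the exceptions were Igfbp6 between the lineages and both calls of Igfbp2. Counts of called members between the lineages moved from 1 to 3 with library size alone, 4 with no filter on low counts, 4 with DESeq2, 2 with limma-voom, 3 with the 2 groups compared alone and 4 without both endothelial-rich libraries (replicate 1 of Postn P7 and of Tcf21 P30), and lay between 0 and 3 with single libraries left out. Where edgeR called 0, an unadjusted p under 0.05 was reached by 4 members (leaving out replicate 1 of Postn P7), by 3 and 2 (leaving out replicate 1 or 2 of Tcf21 P7) and by 5 (leaving out replicate 3 of Tcf21 P30). The 10 called pathway genes of that comparison became 21, 17, 19 and 29 with no filter, DESeq2, the 2 groups alone and without both endothelial-rich libraries, and 0 to 18 with single libraries left out, and the 2118 of all genes called became 3442 with no filter, 3750 without both endothelial-rich libraries and 111 to 3250. With library size alone, 1741 genes were higher and 472 lower there, against 1149 and 969 as reported, and 2802 and 1725, against 2070 and 2206, between Postn P7 and Tcf21 P30. Between the ages, single libraries left out gave 6 to 7 called members, 17 to 37 pathway genes and 2418 to 6063 of all genes tested, and between Postn P7 and Tcf21 P30 5 to 9, 25 to 45 and 2810 to 5072.

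With the replicate block, 2 members were called between the lineages, Igfbp6 (adjusted p = 0.0331) and Igf1 (0.487, adjusted p = 0.0399), and Igfbp2 lost its call between the ages (adjusted p = 0.0615). The labels do not say that a replicate number marks a shared animal or day; deviations of equally numbered libraries correlated with r of 0.051 to 0.414. In the block fit 1556, 4553 and 3348 genes were called, against 2118, 5604 and 4276.

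Signs changed for differences that were not called. Igf2bp3 between the lineages was 0.015 with upper-quartile factors, 0.094 with library size alone, 0.007 with the 2 groups alone, 0.11 without both endothelial-rich libraries and -0.163 to 0.103 with single libraries left out. Igfbp5 was 0.045 with library size alone and -0.304 to 0.109 with single libraries left out between the lineages, -0.122 to 0.097 between the ages, and 0.074 with library size alone, 0.055 with the replicate block and -0.261 to 0.153 between Postn P7 and Tcf21 P30. Igfbp2 between the lineages was -0.203 without both endothelial-rich libraries and -0.21 to 1.41 with single libraries left out. The cause was not tested. Depth limits Igfbp2 and Igf2bp1, which had 6 and 2 counts in all of Tcf21 P30.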
